A study of Homo sapiens with 12 samples.

Results

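Interferon-stimulated effector genes are the genes whose products carry out the antiviral work of the interferon response. The set followed here lists 54 such genes, and each was read from the probe set that carries its symbol alone, using the brightest one by mean over all arrays where a gene had several. In this way 52 of the 54 members were found among 33616 gene symbols. TRIM25 was read only by a probe set with several symbols and IFI30 had no probe set with its symbol alone in the annotation used, so neither was analysed. Members were chosen by name and not by their values in these arrays, although earlier results of the same data were known when the set was drawn up.

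The samples were 12 Clariom D Human arrays of MIO-M1, a human cell line derived from Müller glia of the retina, in 4 groups of 3 biological replicates. MIO-M1-CTG(648) cells carry a DMPK minigene with 648 CTG repeats, the expansion behind myotonic dystrophy type 1, and MIO-M1-CTG(0) cells carry the same minigene with 0 repeats. Both lines descend from 1 selected MIO-M1 clone that holds a tetracycline-controlled activator, so doxycycline (Dox) switches the minigene on from a Tet-responsive promoter. Each line was studied after Dox at 1 µg/ml for 8 days and without Dox. Whether each final line is a single clone is not given in the sources used here. Every repeat length is represented by 1 cell line, replicates are replicates of that line, and any other difference between the lines cannot be told apart from the repeat length.

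When a cell senses foreign nucleic acid it makes type I interferons, which bind receptors on the same and neighbouring cells and activate the JAK kinases. Transcription factors activated by these kinases then enter the nucleus and bind the interferon-stimulated response element (ISRE) in target promoters, while the response to interferon gamma also runs through the gamma-activated site (GAS). The genes switched on this way include proteins that seize viral RNA, block viral entry, consume nucleotides or tag proteins with ISG15, and some of them, IFIT genes and RSAD2 among them, can also be activated by IRF factors without interferon. Retinal Müller glia are known to mount this response.

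All values are log2 signals after the authors' robust multi-array normalization, so a difference of 1 is a doubling. Differences were fitted with limma over 36176 probe sets with 1 gene symbol. A gene is said to be higher or lower, to have risen or to have fallen, where its log2 difference exceeded 0.5 in either direction and its unadjusted p was below 0.005. Adjusted p-values follow Benjamini and Hochberg over all 36176 probe sets. The p-values measure the spread between replicate cultures within groups, pooled over the 4 groups and drawn toward that of all probe sets, on 3 arrays per group. They do not measure a spread between lines, as each repeat length is 1 line.

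Array medians lay between 4.24 and 4.32, arrays of 1 group correlated at 0.992 to 0.994, and no pair of arrays was identical. Of the Müller glia markers, GLUL, VIM, SOX9 and SOX2 were bright in every array, but RLBP1, AQP4, KCNJ10 and GFAP had group means of 2.70 to 4.85, near or below the array medians. The probe set of DMPK, which cannot separate minigene RNA from the cells' own, read 9.78, 9.82 and 9.55 in Dox-induced and 10.32, 10.00 and 10.24 in non-induced CTG(648) cells, a log2 difference of -0.47 that did not pass the threshold. It therefore cannot check the induction, and the Dox groups below rest on the labels. The study followed minigene RNA by RT-PCR, with a shorter Dox exposure than the arrays, and reported none detectable without Dox. It also reported comparable DMPK levels in the induced lines by RT-qPCR. In Dox-induced CTG(648) cells it further reported nuclear RNA foci holding the splicing factors MBNL1 and MBNL2, and altered splicing of both genes. No foci were reported in CTG(0) cells. None of these assays was analysed here. In CTG(0) cells DMPK read 8.50, 8.63 and 8.49 with Dox and 7.90, 7.73 and 8.22 without, and between the non-induced lines it was higher in CTG(648) cells by 2.24 (limma adjusted p = 8.93e-07).

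Promoter sequence was examined first, because an ISRE is what most of these genes share. The ISRE core was searched as GAAA, any pair of bases and GAAA again, and the GAS as TTCNNNGAA, on both strands of RefSeq promoter windows (GRCh38.p14), which run from 250 bases before to 50 bases after each transcription start. A gene with several windows was counted if any of them held the motif. Of 44 members with a window, 33 (75.0%) held an ISRE core, against 1195 of 27305 genes (4.38%). The GAS letters occurred in 11 of the 44 (25.0%), against 2560 genes (9.38%). No window was used for IFIT2, PARP10, USP18, IFITM2, MX2, TRIM22, GBP5 and GBP2.

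The stretches below show the 180 bases before the start of 6 members on which the results turn, 5 that rose with Dox in CTG(648) cells and IFITM3, which fell. They lie at chr2:6877597-6877776, chr10:89392443-89392622, chr10:89327817-89327996, chr1:1013317-1013496 and chr1:78649609-78649788 on the plus strand and at chr11:320861-321040 on the minus strand, and capitals mark ISRE core matches, which read TTTC, a pair of bases and TTTC where the match is on the opposite strand.
RSAD2: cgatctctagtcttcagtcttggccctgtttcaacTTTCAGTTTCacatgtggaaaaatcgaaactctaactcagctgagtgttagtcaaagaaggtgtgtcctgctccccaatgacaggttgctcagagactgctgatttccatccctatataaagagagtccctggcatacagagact
IFIT1: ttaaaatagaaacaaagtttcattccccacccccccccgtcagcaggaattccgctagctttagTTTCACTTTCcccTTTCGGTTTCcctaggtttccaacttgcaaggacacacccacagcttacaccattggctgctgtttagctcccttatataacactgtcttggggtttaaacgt
IFIT3: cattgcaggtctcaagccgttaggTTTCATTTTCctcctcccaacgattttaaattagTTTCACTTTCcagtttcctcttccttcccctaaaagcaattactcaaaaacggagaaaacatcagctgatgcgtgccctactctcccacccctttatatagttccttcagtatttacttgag
ISG15: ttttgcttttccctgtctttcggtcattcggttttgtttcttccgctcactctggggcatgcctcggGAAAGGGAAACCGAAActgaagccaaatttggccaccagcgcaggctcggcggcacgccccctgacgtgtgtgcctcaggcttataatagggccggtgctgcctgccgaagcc
IFI44: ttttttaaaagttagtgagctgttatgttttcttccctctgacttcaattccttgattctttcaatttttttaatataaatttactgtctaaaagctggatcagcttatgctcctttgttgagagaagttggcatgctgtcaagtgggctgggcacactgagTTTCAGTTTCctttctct
IFITM3: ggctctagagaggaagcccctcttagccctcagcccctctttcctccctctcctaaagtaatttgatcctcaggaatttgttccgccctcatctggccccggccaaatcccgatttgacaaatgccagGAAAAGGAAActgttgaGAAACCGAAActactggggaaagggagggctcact

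IFIT1, IFIT3, ISG15 and IFITM3 each held 2 matches in these stretches, which overlap in ISG15, and RSAD2 and IFI44 held 1. Where a member had several windows, its stretch was taken from the window with the most ISRE core matches. IFITM3, which fell, carried the same letters as those that rose, while IFITM2, the other member that fell, had no window. Of members with a window, ISRE cores were found in 8 of the 9 that rose with Dox in CTG(648) cells. Of those lower in non-induced CTG(648) than CTG(0) cells 8 of 9 held a core, and of those higher there 1 of 4. Among members that passed in neither comparison, 20 of 26 with a window held a core. A match is a description of the letters, not evidence that a factor was bound.

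**Figure D1:**
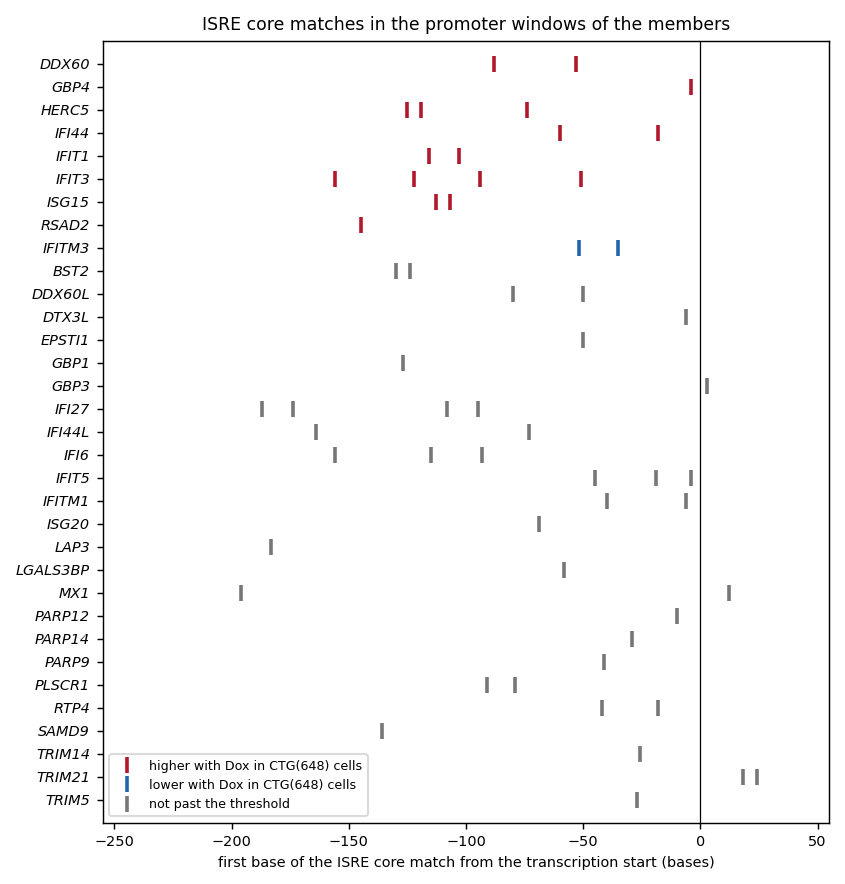
Distance in bases from the transcription start (horizontal axis) to the first base of each ISRE core match, 1 row per member with a match. Members with several starts show the matches of every window, so 1 site can appear more than once. Colours mark members that rose or fell with Dox in CTG(648) cells or did not pass the threshold, and matches of all 3 kinds are seen.

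With Dox, CTG(648) cells raised a small set of the effector genes and lowered a pair of them. RSAD2 and 3 IFIT genes moved most, followed by DDX60, GBP4, HERC5, IFI44, ISG15 and SAMD9L, while IFITM2 and IFITM3 fell. In all, 10 of 52 members (19.2%) rose and 2 (3.85%) fell, where 1.28% of all probe sets rose and 1.14% fell. The other 40 members had log2 differences between -0.58 and 0.68. The members' median difference was 0.13, beside 0.01 over all probe sets, and 35 of 52 were above 0, beside 51.4% of all probe sets. With an adjusted p below 0.05, 3 members were higher (RSAD2, IFIT2 and IFIT3) and 1 lower (IFITM2), beside 0.368% and 0.282% of all probe sets. As these are bulk samples, more RNA per cell and more cells expressing a gene cannot be told apart.

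RSAD2 encodes viperin, an enzyme that turns CTP into a chain-terminating nucleotide. Its signal was 11.01, 10.97 and 11.16 in Dox-induced CTG(648) cells, against 8.59, 8.45 and 8.78 in non-induced CTG(648) cells. The groups stood far apart, with a log2 fold change of 2.44 (SE 0.16, limma adjusted p = 7.92e-06), or 5.43-fold. In CTG(0) cells RSAD2 read 11.01, 10.68 and 10.58 with Dox, against 10.49, 10.45 and 10.23 without it (0.37, adjusted p = 0.554). All CTG(0) arrays were thus above the non-induced CTG(648) arrays, and the Dox-induced CTG(648) arrays were above all non-induced CTG(0) arrays and overlapped the Dox-induced ones. A dim second RSAD2 probe set had a log2 fold change of 0.20 with Dox in CTG(648) cells, and with the mean over both probe sets the gene's value was 1.32, which still passed. CMPK2, a mitochondrial nucleotide kinase whose gene overlaps RSAD2 on chromosome 2, had a log2 fold change of 0.40 (adjusted p = 0.512).

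The IFIT proteins bind viral RNA, IFIT1 and IFIT5 through its 5′ end and IFIT2 and IFIT3 in complexes with IFIT1, and 3 of 4 rose while none fell. IFIT2 read 10.26, 9.89 and 10.57 in Dox-induced CTG(648) cells, against 8.27, 8.25 and 8.28 in non-induced ones, a log2 fold change of 1.97 (SE 0.19, adjusted p = 0.00021). In CTG(0) cells its signal was 8.47, 8.70 and 8.36 with Dox, against 7.91, 8.22 and 8.39 without. Every Dox-induced CTG(648) array therefore lay above all other arrays for IFIT2. IFIT1 had signals of 10.72, 10.54 and 10.59 with Dox and 9.33, 9.51 and 9.48 without in CTG(648) cells (1.18, SE 0.26, adjusted p = 0.0671). Its CTG(0) signals spread widely, at 9.10, 8.74 and 8.12 with Dox, against 8.97, 8.19 and 9.14 without. IFIT3 measured 12.10, 11.96 and 12.33 with Dox and 10.69, 11.10 and 11.02 without in CTG(648) cells (1.19, SE 0.18, adjusted p = 0.00691), and the groups did not overlap. The fourth gene of the family, IFIT5, had a log2 fold change of 0.15 and did not pass. All 4 lie side by side on chromosome 10.

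ISG15 is a ubiquitin-like protein that is attached to other proteins, HERC5 is the ligase that attaches it in human cells, UBE2L6 is the conjugating enzyme and USP18 removes it. Of 5 members of this system, 2 rose and none fell with Dox in CTG(648) cells. HERC5 read 11.47, 11.38 and 11.63 with Dox, against 10.48, 10.73 and 10.73 without (0.85, adjusted p = 0.0617). ISG15 itself was dimmer, at 6.84, 6.25 and 6.29 with Dox, against 5.83, 5.74 and 5.73 without (0.69, adjusted p = 0.121). The groups did not overlap in either gene, although ISG15 no longer passed without replicate 1 of the Dox-induced CTG(648) cells (0.50) or without replicate 2 or 3 of the non-induced ones (0.68 and 0.68).

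The remaining members that rose were single members of their groups or pairs. DDX60, a helicase-like cytoplasmic protein, read 8.77, 8.84 and 9.45 with Dox, against 8.16, 8.17 and 7.99 without in CTG(648) cells (0.91, adjusted p = 0.0523). IFI44, a cytoplasmic interferon-induced protein, read 10.36, 10.36 and 10.50, against 9.31, 9.42 and 9.98 (0.84, adjusted p = 0.0633). GBP4, a guanylate-binding GTPase, read 9.57, 8.86 and 9.28, against 8.50, 8.00 and 8.51 (0.90, adjusted p = 0.0995). In all 3 genes the Dox-induced arrays lay above the non-induced ones, and GBP4 no longer passed without replicate 1 of the Dox-induced (0.73) or replicate 2 of the non-induced (0.73) CTG(648) cells. SAMD9L, a cytoplasmic restriction factor, stood just inside the threshold at 0.50 (adjusted p = 0.194). Just outside stood XAF1, a partner of the apoptosis inhibitor XIAP, at 0.50, the dynamin-like GTPase MX1 at 0.68 and the membrane protein IFITM1 at -0.58.

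IFITM proteins sit in endosomal and plasma membranes and hinder the fusion of viruses with them. Of 4 membrane restriction factors, 2 fell and none rose. IFITM2 read 10.87, 10.82 and 10.81 in Dox-induced and 11.58, 11.89 and 11.91 in non-induced CTG(648) cells (-0.96, SE 0.19, adjusted p = 0.0367). IFITM3 read 15.96, 15.97 and 15.94 with Dox and 16.56, 16.65 and 16.46 without (-0.60, adjusted p = 0.108). The Dox-induced arrays were below the non-induced arrays in both genes. IFITM1, IFITM2 and IFITM3 are near-identical neighbours on chromosome 11, so their probe sets may read 1 another's RNA and the 3 values are not independent. IFITM3 no longer passed without replicate 2 of the non-induced or replicate 3 of the Dox-induced CTG(648) cells, which left 1 member lower in each case.

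The other members did not pass with Dox in CTG(648) cells. Among the 7 MX and GBP GTPases, which form assemblies on viral capsids or on the membranes of pathogen-containing vacuoles, GBP1, GBP2, GBP3, GBP5 and MX2 had log2 fold changes of -0.07 to 0.46. Of the 6 IFI proteins, the DNA-binding protein IFI16 and IFI6, IFI27, IFI35 and IFI44L lay between -0.16 and 0.16. The ADP-ribosyltransferase family members PARP9, PARP10, PARP12 and PARP14 and DTX3L, a ubiquitin ligase that pairs with PARP9, lay between -0.26 and 0.29. The TRIM proteins TRIM5, TRIM14, TRIM21 and TRIM22 and the nuclear body proteins SP100 and SP110 lay between -0.32 and 0.14. With the members that rose and MX1 set aside, these groups lay between -0.32 and 0.46.

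Of the helicase-like and SAMD9 members, DDX60L, HELZ2 and SAMD9 had log2 fold changes of 0.11, 0.21 and 0.32, and the exonuclease ISG20 had -0.03. The other effectors were the peptidase LAP3 and the membrane scramblase PLSCR1 at 0.05 each, the chaperone-like RTP4 at 0.31, BATF2, a transcription factor, at -0.01, EPSTI1 at 0.27 and LGALS3BP at -0.22. In the ISG15 system HERC6, USP18 and UBE2L6 had 0.46, 0.38 and -0.35, and the membrane tether BST2 had -0.08. MX2, BST2, HELZ2 and BATF2 were dim throughout, with group means of 2.72 to 4.15, below the array medians, so a change in them would be hard to see. By contrast 20 members had means of at least 10 in every group.

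**Figure D2:**
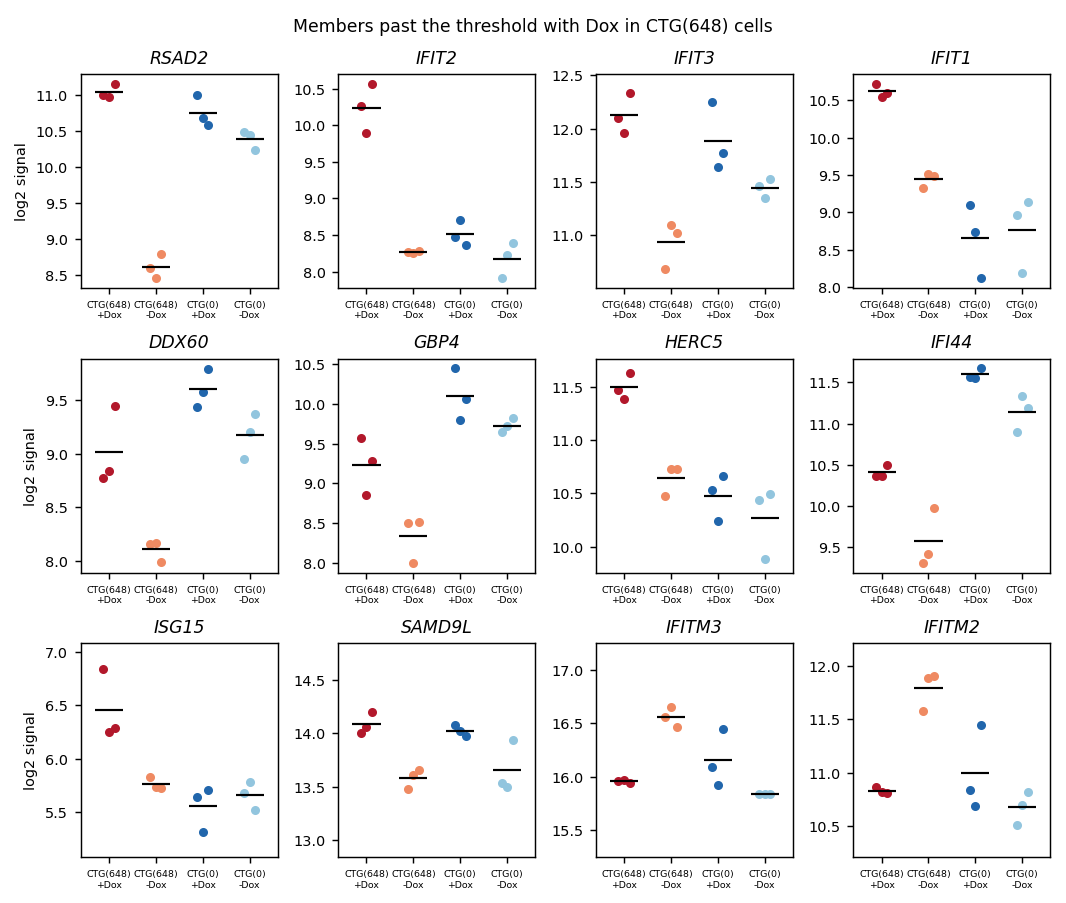
Log2 signal (vertical axis) of the members that rose or fell with Dox in CTG(648) cells, 1 point per array and a bar at each group mean, with the 4 groups along the horizontal axis. RSAD2 in non-induced CTG(648) cells lies at 8.45 to 8.78, below the other 3 groups, whereas IFIT2 stands out in Dox-induced CTG(648) cells at 9.89 to 10.57.

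In CTG(0) cells, the control for Dox and for the minigene RNA without repeats, 0 of 52 members passed in either direction, where 0.58% of all probe sets rose and 0.6% fell. At an unadjusted p below 0.05, limma gave 12 members higher and 0 lower, beside 4.05% and 4.34% of all probe sets, and the methods' t-test with the study's threshold gave 1 member higher (HERC6), beside 0.193% of all probe sets. The members' median difference was 0.20, beside -0.01 over all probe sets, 42 of 52 were above 0, beside 48.8% of all probe sets, and the range was -0.30 to 0.64. Leaving out replicate 2 or 3 of the non-induced CTG(0), replicate 3 of the Dox-induced CTG(0) or replicate 2 of the non-induced CTG(648) cells, which share the variance estimate, gave 1 or 2 members higher.

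The 4 members with the smallest p in the CTG(0) line were GBP5, a GTPase that hinders the maturation of viral envelope proteins, HERC6, a relative of HERC5, and the ADP-ribosyltransferase family members PARP9 and PARP14. GBP5 read 11.10, 10.93 and 10.77 with Dox, against 10.48, 10.38 and 10.61 without (0.44, adjusted p = 0.427). HERC6 had signals of 9.16, 9.08 and 8.91 with Dox and 8.42, 8.50 and 8.62 without (0.54, adjusted p = 0.444), and 0.14 as a mean over its 3 probe sets. Neither pair of groups overlapped, and the same held for PARP9 at 10.83, 11.01 and 10.96 against 10.45, 10.77 and 10.26 (0.44, adjusted p = 0.461) and for PARP14 at 11.94, 12.04 and 11.87 against 11.65, 11.34 and 11.56 (0.43, adjusted p = 0.469). In CTG(0) cells 14 members had Dox-induced arrays all above the non-induced arrays and 1 had them all below, beside 6.51% and 6.42% of all probe sets. In CTG(648) cells these counts were 14 and 9, beside 9.04% and 7.92%.

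The difference between the lines in the Dox effect was tested directly as an interaction. It passed for 3 members upward (RSAD2, IFIT2 and IFIT1) and for 2 downward (IFITM2 and IFITM3), where 1.1% of all probe sets passed upward and 1.22% downward. The Dox effect in CTG(648) cells exceeded that in CTG(0) cells by 2.07 for RSAD2 (SE 0.22, adjusted p = 0.00165), by 1.64 for IFIT2 (SE 0.26, adjusted p = 0.0147) and by 1.29 for IFIT1 (SE 0.36, adjusted p = 0.189). For IFITM2 and IFITM3 the interaction was -1.28 (adjusted p = 0.0657) and -0.91 (adjusted p = 0.0976). RSAD2 and IFIT2 were also past an adjusted p of 0.05, and no member was past it downward, beside 0.238% of all probe sets upward and 0.232% downward. IFIT1 did not pass in 10 of the 12 fits that each left out 1 array, with interactions of 1.02 to 1.58.

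For the other 47 members the interaction ran between -0.86 and 0.80 and did not pass. Among them are 7 that had passed in CTG(648) cells, such as IFIT3 (0.75, adjusted p = 0.297), and for these a difference between the lines in the Dox effect was not shown. The members' median interaction was 0.03, beside 0.02 over all probe sets. The signs of the Dox effect were above 0 in both lines for 25 members and below 0 in both for 0, while 10 were above 0 in CTG(648) cells and below 0 in CTG(0) cells and 17 the other way round. These counts depend on those above 0 in each line. The shares over all probe sets were not worked out, so the counts are a description only.

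The baseline comparison asks whether the lines already differed without Dox. They did, and more often downward in CTG(648) cells: RSAD2, IFI44, XAF1, LGALS3BP, USP18, GBP4, GBP1, DDX60, EPSTI1 and PARP12 were lower than in CTG(0) cells, and UBE2L6, IFITM2, SP100, TRIM22, IFITM3 and HERC6 were higher. That is 10 of 52 members lower (19.2%) and 6 higher (11.5%), where 6.11% of all probe sets were lower and 5.63% higher. All 16 were also past an adjusted p of 0.05, as were 6.52% of all probe sets downward and 5.95% upward. The members' median difference was -0.12, beside 0.00 over all probe sets, and 19 of 52 were above 0, beside 50.1%. Without replicate 1 of the non-induced CTG(648) cells this median was -0.075, and without replicate 3 of the non-induced CTG(0) cells it was -0.077. The arrays of the lines did not overlap for 18 members lower and 11 higher in CTG(648) cells, beside 14.3% and 13.2% of all probe sets.

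RSAD2 was lower without Dox in CTG(648) than in CTG(0) cells by a log2 difference of -1.78 (adjusted p = 6.06e-06), or 3.44-fold. The next members by p were XAF1 and IFI44. XAF1 read 5.06, 5.35 and 5.21 in non-induced CTG(648) cells, against 6.66, 6.96 and 6.66 in non-induced CTG(0) cells (-1.55, adjusted p = 3.33e-05). IFI44 read 9.31, 9.42 and 9.98, against 10.90, 11.34 and 11.19 (-1.57, adjusted p = 6.39e-05). The lines did not overlap in any of these genes.

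USP18, which also restrains signalling at the interferon receptor, read 8.71, 9.06 and 8.69 in non-induced CTG(648) cells, against 10.23, 10.16 and 10.64 in non-induced CTG(0) cells (-1.52, adjusted p = 0.000151). LGALS3BP, a secreted glycoprotein that binds galectins, read 8.09, 7.93 and 7.99, against 9.26, 9.41 and 9.93 (-1.53, adjusted p = 0.000581). GBP1, a founding member of the guanylate-binding proteins, read 9.44, 9.95 and 9.46, against 10.63, 11.21 and 10.74 (-1.24, adjusted p = 0.000706). For these 3 genes too, every CTG(648) array was below every CTG(0) array. GBP4 read 8.50, 8.00 and 8.51 in non-induced CTG(648) cells, against 9.65, 9.72 and 9.82 in non-induced CTG(0) cells (-1.39, adjusted p = 0.000708), again without overlap. DDX60, EPSTI1 and PARP12 had baseline differences of -1.07, -1.02 and -0.99.

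On the other side, UBE2L6 read 12.31, 12.58 and 12.40 in non-induced CTG(648) cells, against 11.30, 10.94 and 11.34 in non-induced CTG(0) cells (1.24, adjusted p = 0.000708). With the mean over a gene's probe sets this difference was 0.50 and that of HERC6 was 0.25, and neither passed, which left 4 members higher. SP100, a nuclear body protein, and the antiviral ligase TRIM22 were higher by 1.04 (adjusted p = 0.000524) and 0.89 (adjusted p = 0.0031), and HERC6 by 0.64 (adjusted p = 0.0291). IFITM2 and IFITM3 were higher by 1.12 (adjusted p = 0.00142) and 0.72 (adjusted p = 0.00526), with CTG(0) signals of 10.51, 10.70 and 10.82 for IFITM2 and 15.84 in all 3 arrays for IFITM3. Of the 5 ISG15-system members 2 were higher, the same 2 that did not pass with the mean over probe sets, and 1 was lower, whereas the 4 IFIT genes had none on either side and baseline differences of -0.51 to 0.67.

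**Figure D3:**
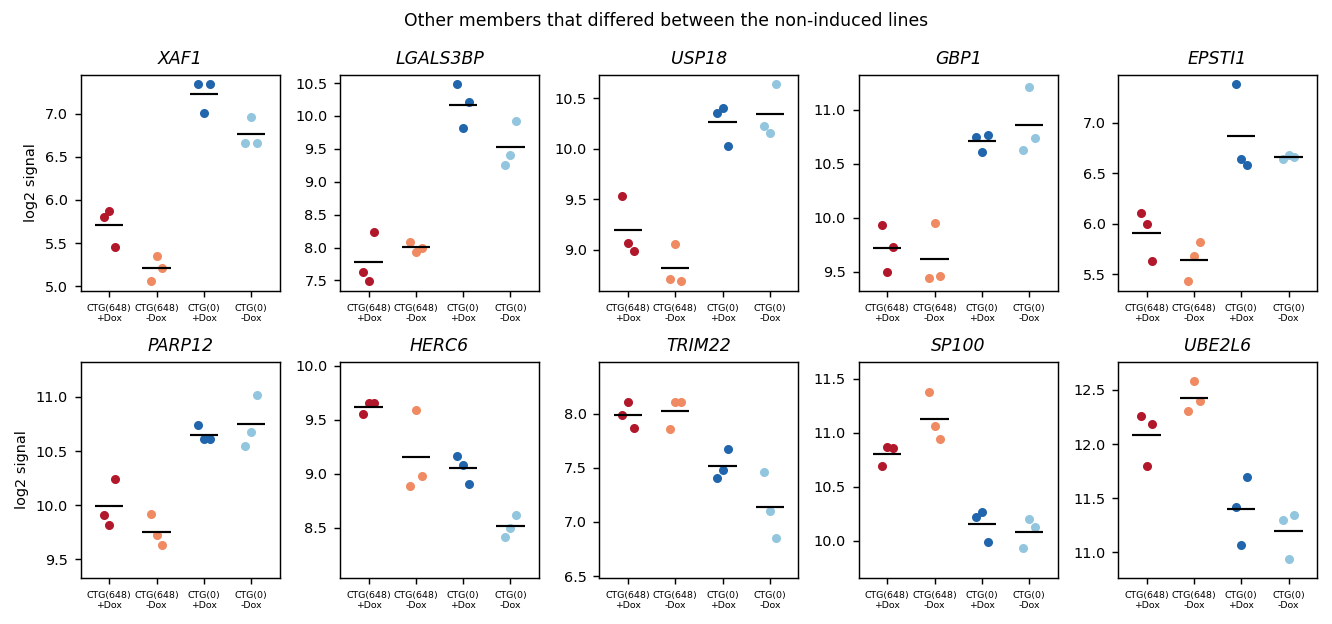
Log2 signal (vertical axis) of 10 members that differed between the non-induced lines and did not pass with Dox in CTG(648) cells, 1 point per array and a bar at each group mean, with the 4 groups along the horizontal axis. In XAF1 the CTG(648) arrays reach at most 5.87 and the CTG(0) arrays begin at 6.66, Dox or not.

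Setting the baseline beside the Dox response sorted the members into few patterns. The baseline comparison and the Dox effect in CTG(648) cells share the non-induced CTG(648) arrays, with opposite sign, so a chance deviation of those arrays enters both and the counts are given as a description only. RSAD2, IFI44, DDX60 and GBP4 were lower at baseline and rose with Dox (0.315% of all probe sets). HERC5, IFIT1, IFIT2, IFIT3, ISG15 and SAMD9L rose with no baseline difference past the threshold (0.865%). IFITM2 and IFITM3 were higher at baseline and fell with Dox (0.509%). EPSTI1, GBP1, LGALS3BP, PARP12, USP18 and XAF1 were lower at baseline and did not pass with Dox (5.73%), HERC6, SP100, TRIM22 and UBE2L6 were higher at baseline and did not pass with Dox (5.02%), and 30 members passed in neither (86.8%).

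How far Dox brought the lines together or apart can be read from the induced cells. This comparison shares the Dox-induced CTG(648) arrays with the Dox effect in that line. Of 52 members, 7 were higher and 12 lower in Dox-induced CTG(648) than in Dox-induced CTG(0) cells (13.5% and 23.1%), where 6.34% of all probe sets were higher and 5.33% lower, and the members' median difference was -0.14, beside 0.01 over all probe sets. Without replicate 2 or 3 of the Dox-induced CTG(0) cells this median was -0.093 or -0.088. Differences above 0 were seen in 21 members, beside 51% of all probe sets, and the arrays did not overlap for 12 higher and 14 lower members, beside 15.3% and 14.6%. RSAD2 no longer differed past the threshold (0.29, 95% interval -0.05 to 0.63, adjusted p = 0.287) and neither did IFITM2 (-0.16) or IFITM3 (-0.19). IFIT1 and IFIT2 were higher by 1.96 (adjusted p = 0.000209) and 1.73 (adjusted p = 4.14e-05), HERC5 by 1.02 (adjusted p = 0.0022) and ISG15 by 0.90 (adjusted p = 0.00387). The CTG(0) arrays of HERC5 with Dox read 10.53, 10.24 and 10.66, below every Dox-induced CTG(648) array. MX1, UBE2L6 and SP100 made up the rest, at 0.83, 0.69 and 0.65, and UBE2L6 did not pass with the mean over its probe sets (0.23).

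LGALS3BP had the lowest difference of all members between the induced lines, at 7.63, 7.49 and 8.23 in Dox-induced CTG(648) cells, against 10.48, 9.82 and 10.21 in Dox-induced CTG(0) cells (-2.39, SE 0.23, adjusted p = 1.8e-05). XAF1 read 5.80, 5.87 and 5.46, against 7.34, 7.01 and 7.34 (-1.52, adjusted p = 4.61e-05). IFI44 had risen with Dox in CTG(648) cells but was still lower than in Dox-induced CTG(0) cells, whose arrays read 11.57, 11.56 and 11.67 (-1.19, adjusted p = 0.000652). The same held for GBP4, with CTG(0) arrays at 10.45, 9.80 and 10.07 (-0.87, adjusted p = 0.0171). In both genes the Dox-induced CTG(648) arrays stayed below the Dox-induced CTG(0) arrays.

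USP18 read 9.53, 9.07 and 8.99 in Dox-induced CTG(648) cells, against 10.36, 10.41 and 10.03 in Dox-induced CTG(0) cells (-1.07, adjusted p = 0.00237). GBP1 read 9.93, 9.50 and 9.73, against 10.75, 10.61 and 10.77 (-0.99, adjusted p = 0.00381). Neither gene's groups overlapped, and with EPSTI1 (-0.96) and PARP12 (-0.66) they were lower here as they were without Dox. IFI6, IFI35, GBP5 and DTX3L passed here and not at baseline, at -0.94, -0.67, -0.63 and -0.51, and a difference between the 2 comparisons was not shown, since the interaction did not pass for them.

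**Figure D4:**
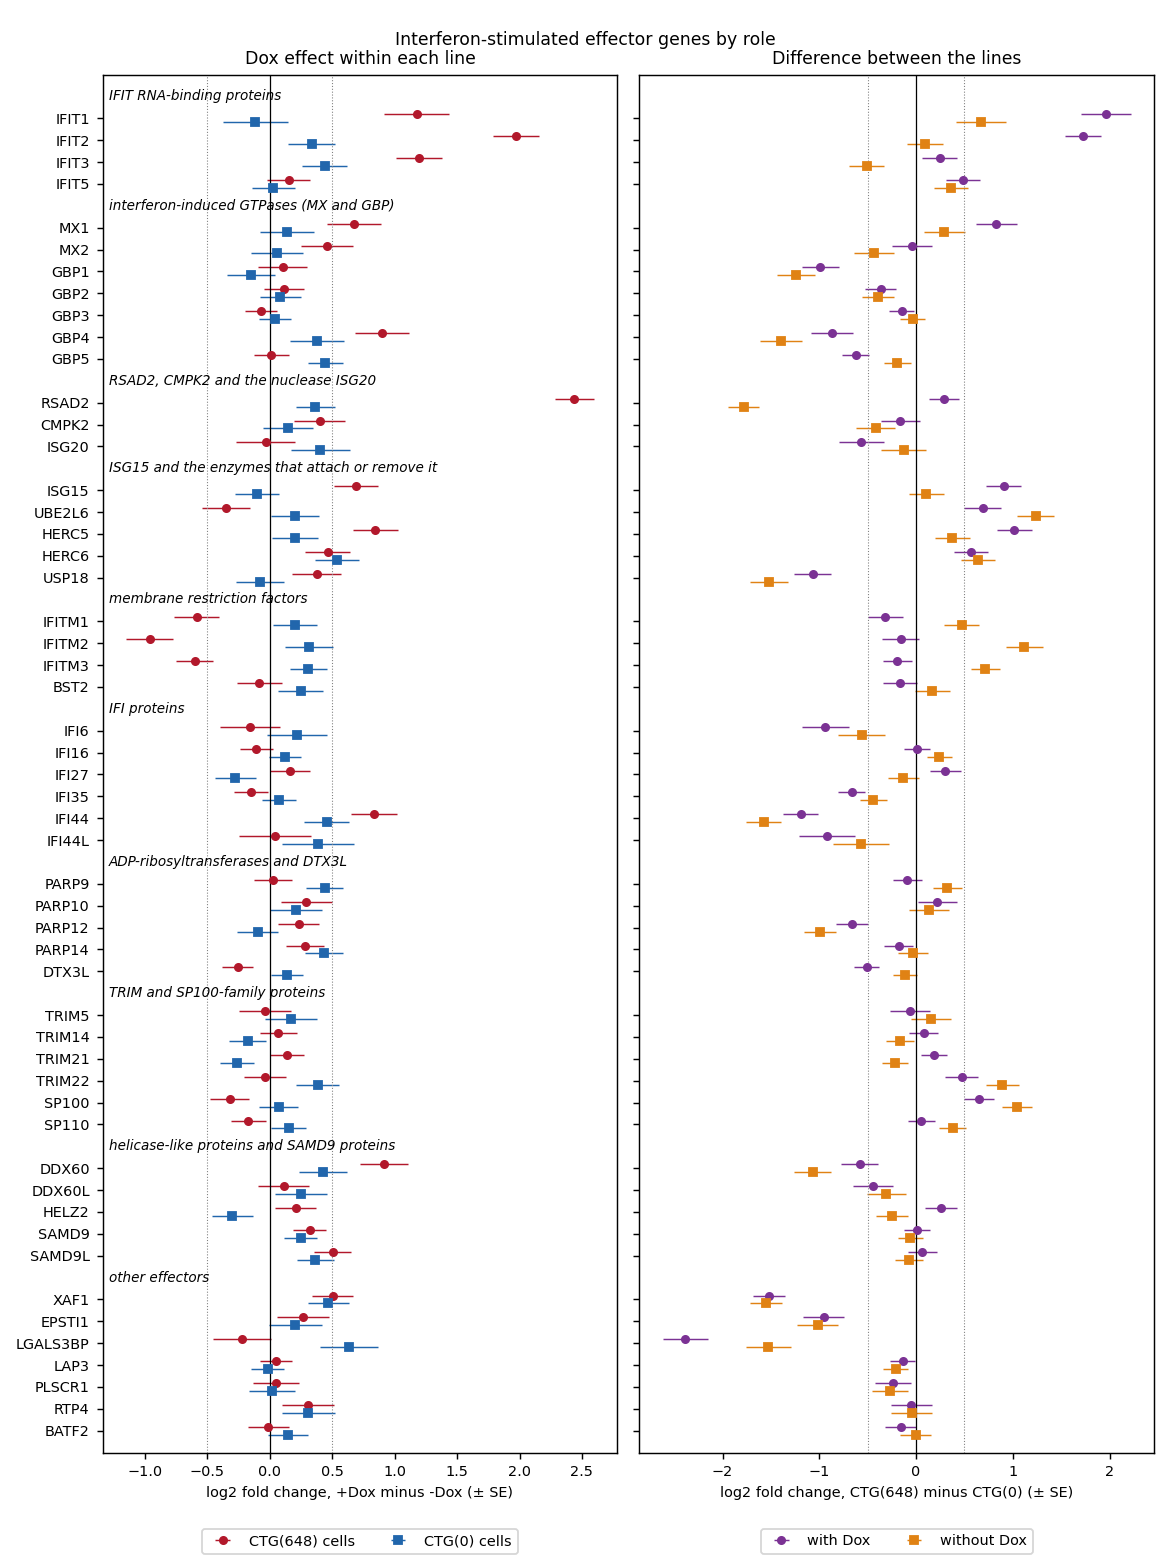
Log2 fold change with its standard error (horizontal axes) for each of the 52 members, grouped by role down the page. The left panel gives the Dox effect in each line and the right panel the CTG(648) minus CTG(0) difference with and without Dox, and RSAD2 lies at 2.44 with Dox in CTG(648) cells and at -1.78 between the non-induced lines.

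Averaged over the 52 members, the signal per array was 9.29 to 9.35 in Dox-induced and 9.01 to 9.12 in non-induced CTG(648) cells, and 9.37 to 9.51 in Dox-induced and 9.21 to 9.35 in non-induced CTG(0) cells. The lowest 3 arrays were those of non-induced CTG(648) cells, whose range did not overlap any other group. In each line the induced arrays lay above the non-induced ones.

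Genes upstream of the effectors were taken from fixed lists. Their counts with Dox in CTG(648) cells stand beside 1.28% of all probe sets higher and 1.14% lower. Among 20 interferon genes, only IFNA14 rose with Dox in CTG(648) cells (0.84, adjusted p = 0.171), and its probe set may read other IFNA genes, which are near-identical. IFNB1, the interferon most cells make first, had signals of 3.76, 3.74 and 3.91 with Dox and 3.85, 4.19 and 3.66 without in CTG(648) cells, below the array medians. None of 9 receptor and JAK genes passed. Of 7 transcription factor genes of the pathway, IRF1 alone rose, at 9.88, 9.26 and 9.77 with Dox, against 7.76, 7.75 and 8.25 without (1.72, adjusted p = 0.00151). IRF1 is a transcription factor that binds ISRE-like sites, and its interaction of 1.92 passed too (adjusted p = 0.0136).

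With Dox in CTG(648) cells 1.28% of all probe sets rose and 1.14% fell. Of 12 sensors of foreign RNA and DNA with their adaptors, 3 rose and none fell. They were DDX58, which encodes the RNA sensor RIG-I (1.41, adjusted p = 0.000543), IFIH1, which encodes MDA5 (0.79, adjusted p = 0.0616), and IKBKE, a kinase that activates IRF3 (0.73, adjusted p = 0.0367). OASL, a relative of the oligoadenylate synthetases that binds RIG-I, was the only one of 4 OAS members to rise, at 12.55, 12.48 and 12.80 with Dox, against 10.12, 10.77 and 10.65 without (2.10, adjusted p = 0.000479). Its interaction was 1.76 (adjusted p = 0.0222). Among 5 feedback inhibitors of interferon signalling the phosphatase PTPN6 rose (0.73, adjusted p = 0.102). Its signals were dim and below the array medians, at 3.25, 3.39 and 3.65 with Dox, against 2.95, 2.54 and 2.60 without, so this rise is uncertain. In CTG(0) cells no gene of these lists passed, where 0.58% of all probe sets rose and 0.6% fell.

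The sensors also differed between the non-induced lines, in both directions. STING1, the adaptor of cytoplasmic DNA sensing, read 12.68, 13.05 and 12.87 in CTG(648) and 10.28, 10.36 and 10.22 in CTG(0) cells (2.58, adjusted p = 5.21e-07). CGAS, the enzyme whose product STING1 binds, ran the other way, at 6.65, 6.45 and 6.82 in CTG(648) and 8.40, 7.98 and 8.67 in CTG(0) cells (-1.71, adjusted p = 0.000235). IFIH1 was higher by 1.80, and TLR3 and DDX58 were lower by log2 differences of -1.02 and -0.65. OASL and OAS3 were lower too, at -1.26 and -1.10.

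Markers of other cells were followed beside these results. None of 10 microglia and macrophage, 6 lymphocyte, 4 plasmacytoid dendritic cell and 5 endothelial markers passed with Dox in CTG(648) cells. There 1.28% of all probe sets rose and 1.14% fell. The microglia and macrophage list averaged 5.27 to 5.32 per array with Dox and 5.12 to 5.24 without in that line, with CD68 bright, AIF1 at 2.99 to 3.92 and PTPRC at 4.52 to 5.94 over all 12 arrays. In the list of 10 fibroblast markers, 4 genes fell in CTG(648) cells under Dox and none rose, and the list's average per array was 10.54 to 10.77 with Dox, against 11.26 to 11.50 without. Between the non-induced lines 5 of these 10 were lower in CTG(648) cells and 1 higher, beside 6.11% and 5.63% of all probe sets. The list's average in non-induced CTG(0) cells was 12.35 to 12.55. Single genes weigh heavily in this average, as LUM was at -7.04, PDGFRA at 2.04 and the list's median difference at -0.835. The 14 Müller glia markers averaged 11.20 to 11.21 per array in non-induced CTG(648) and 10.65 to 10.79 in non-induced CTG(0) cells. They averaged 11.13 to 11.20 in Dox-induced CTG(648) cells. Without Dox 5 were higher and 1 lower in CTG(648) cells, beside the same 5.63% and 6.11% of all probe sets. Between the non-induced lines CRYAB differed by 4.95 and SLC1A3 by -1.92, beside a list median of 0.26, so the average leans on single genes. With Dox in CTG(648) cells 2 of these 14 rose, SLC1A3 (0.71) and EGFR (0.55), and none fell past the threshold, with SOX9 at -0.50. The part of these shifts in the effector genes' differences was not tested.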

How the data were processed

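MIO-M1-CTG(648) and MIO-M1-CTG(0) cells, with and without Dox, were profiled on 12 Clariom D Human arrays, 3 per group. The authors deposited log2 values, and their methods name robust multi-array average. This corrects background, equalizes the distributions of the arrays and summarises probes, so only differences in rank and relative signal survive. The study reported other mean signals for some of the same probe sets, and the raw intensities were not analysed here. Of 135750 probe sets, 36176 carried 1 gene symbol in the platform annotation, 1119 several and 98455 none. Groups came from the sample labels. One limma 3.58.1 model (R 4.3.3) over all 12 arrays, with 8 residual and 5.11 prior degrees of freedom, gave the contrasts, and the study's threshold (log2 difference over 0.5, p under 0.005) was applied. Arrays carry no read depth, so their number limits the precision. The script was tested on simulated data.

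The members, lists, tests and alternatives were chosen with earlier results of these data known. Array values were given for the members past the threshold with the largest differences, up to 10 for Dox in CTG(648) cells and 8 in each other contrast, and for the 4 with the smallest p for Dox in CTG(0) cells. The other members were named by role, and genes of other lists by smallest p, with IFNB1 and the cell markers added after their values were seen. The alternatives were the methods' t-test, adjusted p, other scalings, array weights, a signal minimum of 5, a mean over probe sets, single contrasts, a replicate block and leaving out each array.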

Additional observations from a re-analysis of the deposited data

Results flagged for a closer look

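The Dox effect differed between the lines for 2 members past an adjusted p of 0.05. For RSAD2 the effect in CTG(648) cells exceeded that in CTG(0) cells by 2.07 on the log2 scale (limma adjusted p = 0.00165). All 3 Dox-induced CTG(648) arrays were above all 3 non-induced ones, at 10.97 to 11.16 against 8.45 to 8.78, and in CTG(0) cells the effect was 0.37. For IFIT2 the effect was larger by 1.64 (adjusted p = 0.0147), and the Dox effect in CTG(0) cells was 0.34. The interactions of RSAD2 and IFIT2 stayed at 1.99 to 2.20 and 1.47 to 1.81 when each array was left out. With the mean over its probe sets, 1 of them dim, the RSAD2 interaction was 0.95, which still passed the study's threshold.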

How the results depend on the processing

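Of 760 values of the 35 named results under alternatives, 724 kept their direction and side of the threshold, 32 no longer passed, 4 passed newly and 0 reversed. With an adjusted p under 0.05, 3 members were higher and 1 lower with Dox in CTG(648) cells, in place of 10 and 2, and 0 in place of 2 had a negative interaction. With the variance prior taken from all probe sets, an alternative chosen after seeing the data, these 3 counts were 3, 0 and 0, and without the adjustment 652 probe sets with 1 symbol passed with Dox in CTG(648) cells, in place of 875, and 271 in CTG(0) cells, in place of 427. Normalizing by quantiles once more left 1 member lower with Dox in CTG(648) cells. The methods' t-test gave 1 member higher with Dox in CTG(0) cells in place of 0, and 7 in place of 12 lower between the Dox-induced lines, and removing genes that differed between the non-induced lines left 4 of those 12. A mean over each gene's probe sets gave a median of -0.075 between the induced lines in place of -0.14, and moved RSAD2 to 1.32 with Dox in CTG(648) cells, -0.92 between the non-induced lines and 0.95 in the interaction. Centring arrays on their medians turned the all-gene split with Dox in CTG(0) cells to 167 higher and 283 lower, in place of 210 and 217. Where each array was left out in turn, the median interaction ran from -0.043 to 0.093, turning to -0.039 without non-induced CTG(0) replicate 3 and -0.043 without non-induced CTG(648) replicate 1, the medians between the non-induced and the induced lines from -0.18 to -0.075 and from -0.143 to -0.088, members higher with Dox in CTG(0) cells numbered 0 to 2, and members higher and lower with Dox in CTG(648) cells 7 to 11 and 1 to 3. Same-numbered arrays did not deviate together (correlations -0.0781 to 0.0727), so the numbers do not pair them, and with a replicate block 9 members were higher and 2 lower with Dox in CTG(648) cells. Except where stated, the cause was not tested.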
